A study of Gallus gallus with 4 samples.

Results

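Secreted proteins other than the collagens and the main structural matrix genes were compared between DF-1 cells, a spontaneously immortalized chicken fibroblast line, and primary chicken embryo fibroblasts (CEF). The genes were chosen by the study's own pathway list: entries located outside the cell with a type of other, cytokine, growth factor or peptidase, less the collagens and certain named genes. With entries of other types, 37 extracellular entries were left out. The choice left 59 sequence accessions for 58 genes out of 902 entries in the list, of which 96 were located outside the cell. THBS1 had 2 accessions, and each of the 59 lay on exactly 1 of the 42034 gene probes. The list was selected on the same 4 arrays by the size of the change between the cell types, so the ratios below describe the genes, and no test is given for them.

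RNA came from primary CEF at passage 4, dissociated from whole 10-day embryos of a specific-pathogen-free flock, and from DF-1 cells at late passage, a single line that arose from embryos of another flock, Line 0. Immortality, passage number and genetic background therefore differed together and cannot be told apart. Both were grown in the same serum-containing medium with no further treatment, and each of the 4 arrays carried CEF cRNA in Cy3 and DF-1 cRNA in Cy5. The labels number the arrays as replicates, and the study's methods call the replicates biological. Yet the series' design text mentions 1 sample of each cell type. The SD over n = 4 arrays and any p thus measure the spread between arrays, which may be technical.

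Cells export most such proteins by giving them a signal peptide that leads the growing chain into the endoplasmic reticulum. From there the proteins pass through the Golgi to the cell surface. Fibroblasts are known for this export: beside structural matrix they release ligands of the Wnt, TGF-beta and BMP pathways, antagonists that hold those ligands back, growth factors, peptidases and the inhibitors of those peptidases. Several ligands are made as precursors that a proprotein convertase must cut, and many exported proteins are held in shape by disulfide bonds between cysteines.

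Each ratio came from a single 60-base probe. Of these probes, 7 are shown as examples taken to lie in the coding part of genes named below, that of WNT5A only up to its stop codon. The reading frames were chosen for this report and not checked against protein sequences. All 3 frames were open across the WNT9A probe, 2 across those of TGFB2 and LUM, and 1 across those of MDK, THBS1 and TNFAIP6. They are written 5′ to 3′ as designed on the array, with codons for cysteine in capitals. In WNT5A the capitals mark the stop codon instead, and the 36 bases up to and including it are shown. The chromosomes are those of the study's probe annotation, which names no genome build, so no positions are given.
TGFB2 (chromosome 3): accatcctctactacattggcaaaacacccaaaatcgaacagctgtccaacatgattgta
WNT5A (chromosome 12): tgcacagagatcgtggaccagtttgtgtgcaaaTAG
WNT9A (chromosome 2): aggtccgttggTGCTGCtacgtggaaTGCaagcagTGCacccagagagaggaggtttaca
MDK (chromosome 5): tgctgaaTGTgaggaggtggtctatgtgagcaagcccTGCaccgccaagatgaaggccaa
THBS1 (chromosome 5): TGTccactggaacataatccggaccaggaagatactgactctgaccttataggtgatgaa
TNFAIP6 (chromosome 7): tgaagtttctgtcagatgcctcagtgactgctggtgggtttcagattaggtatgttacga
LUM (chromosome 1): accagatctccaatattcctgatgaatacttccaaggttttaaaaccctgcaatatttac
In the chosen frames the WNT9A probe held 4 cysteine codons, the MDK probe 2 and the THBS1 probe 1. The probes of TGFB2, TNFAIP6 and LUM held 0. The WNT5A stretch held 2, which are not in capitals.

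Of the 59 accessions, 46 were lower in DF-1 cells, 8 were higher and 5 did not pass. A call needed a 2-fold change, that is, a mean log2 ratio of DF-1 over primary CEF below -1 or above 1, and an unadjusted p from limma under 0.05. The study drew its list from genes that it called at a 2-fold change and p under 0.05. The 5 thus differ in call from the study and are not shown to be unchanged. Of the 894 pathway list entries with 1 probe each, 96 were not called here as deposited. Over all gene probes the same thresholds called 6.06% lower and 6.12% higher. As the list was made from this contrast, nothing is read from that difference. The same holds for the counts by role group below. Of the pathway list entries with 1 probe each, 44.5% were lower and 44.7% higher. The median of the mean log2 ratios was -2.07 over the secreted genes and 0.22 over all gene probes. On the single arrays the medians of the secreted genes were -2.36, -1.76, -2.25 and -1.83 for arrays 1 to 4. In 58 of 59 cases the ratio had the same sign on all 4 arrays. The exception was NTS. A single sign on all 4 arrays was also seen for 888 of the 894 pathway list entries with 1 probe each. Over all gene probes it was seen for 20970 of 42034. Genes selected for a large change on these arrays mostly keep their sign, so nothing is read from this count.

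**Figure D1:**
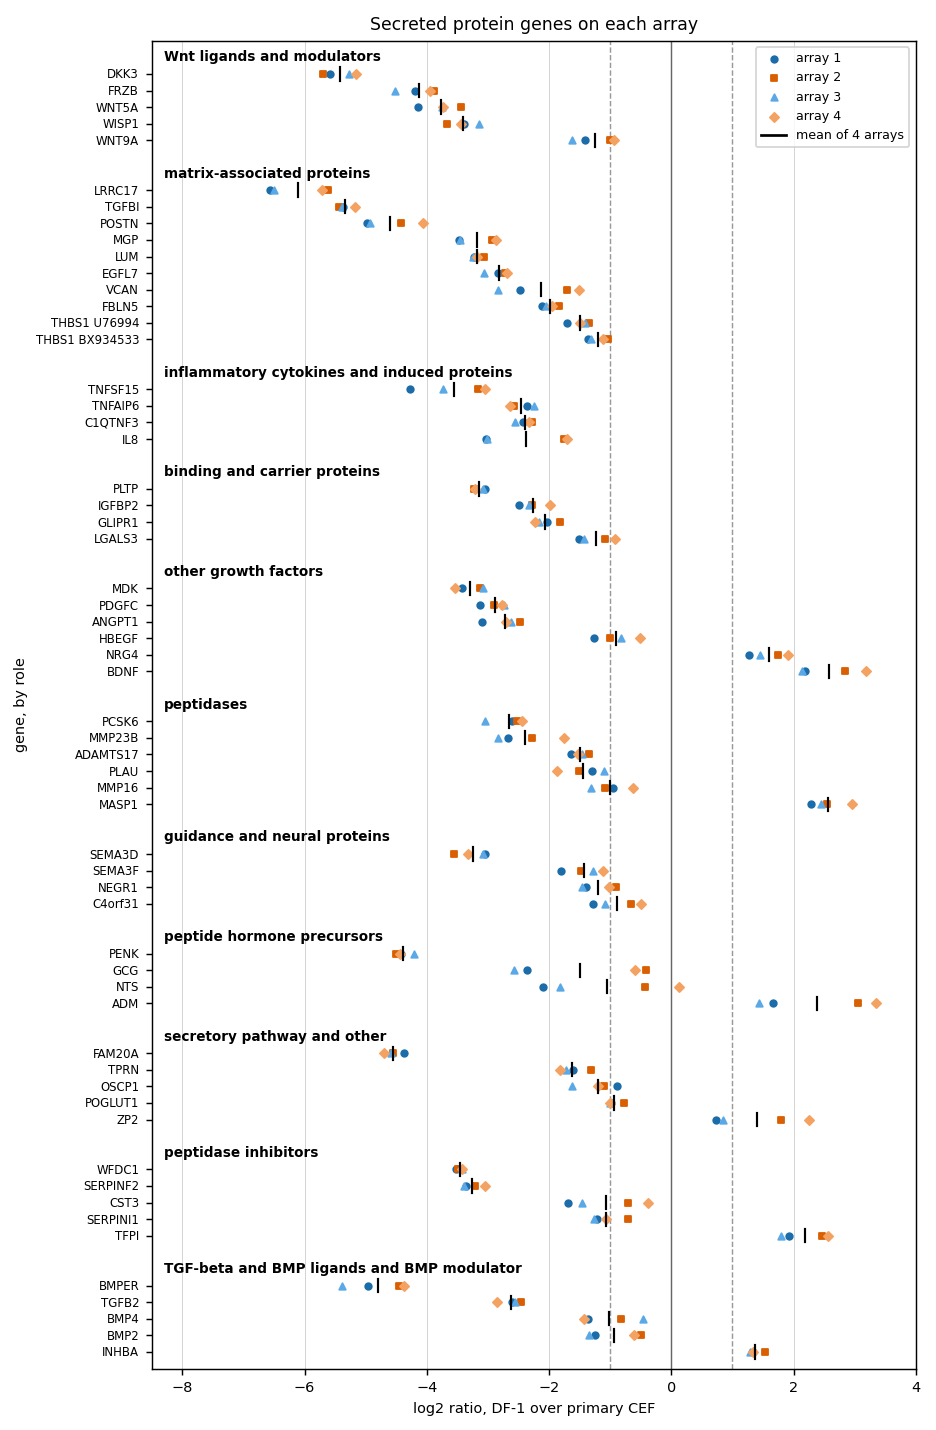
Log2 ratio of DF-1 over primary CEF (x axis) for 58 of the 59 accessions (y axis), grouped by role, with a marker for each of the 4 arrays, a bar for their mean and dashed lines at -1 and 1. Most markers lie left of 0, and the higher genes, from INHBA to BDNF, lie to the right on all arrays.

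The level of the arrays bears on these counts. Gene probes had median log2 ratios of -0.04, 0.20, 0.21 and 0.47 for arrays 1 to 4 in turn, and the negative control probes had medians of 0.02, 0.17, 0.38 and 0.53. With every array centered on the median of its own gene probes, 51 secreted accessions were lower, 8 were higher and 0 did not pass, beside 7.76% and 4.16% of all gene probes. Intensities were not used here, so how close either channel lay to background is unknown, and the size of the largest ratios cannot be checked against it. In bulk RNA, fewer cells of a type and less RNA per cell cannot be told apart. Of 36 markers listed for cell types that a whole embryo could contribute, 4 could be reached by a symbol, through the same pathway list, and all 4 were lower: CLDN5 of endothelium at -2.98 ± 0.27 on the log2 scale (SD, n = 4), SOX9 of cartilage at -1.95 ± 0.37, MAP2 of neurons at -1.82 ± 0.15 and MYOD1 of skeletal muscle at -1.22 ± 0.23. That list was selected for change on these arrays, so unchanged markers could not appear among the 4. Of its entries with 1 probe each, 44.5% were lower, beside 6.06% of all gene probes, and nothing is read from the 4. None of the 7 fibroblast markers was reached through that list or by a RefSeq accession. Symbols in the study's probe annotation were not searched for markers, so the labelled cell type was not checked. The part of other cell types in the ratios below was not tested.

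Matrix-associated proteins were the largest role group, and 10 of its 11 accessions were lower, with a median of the mean log2 ratios of -2.83. LRRC17, a secreted leucine-rich repeat protein, had log2 ratios of -6.57, -5.62, -6.50 and -5.72 on arrays 1 to 4. Its mean of -6.10 ± 0.50 (SD, n = 4), a 68.8-fold lower level in DF-1 cells, was the lowest among the secreted genes, and arrays 1 and 3 lay below arrays 2 and 4. TGFBI, an integrin-binding matrix protein induced by TGF-beta, had -5.37, -5.44, -5.39 and -5.17. These values lay close together, with a mean of -5.34 ± 0.12 or 40.6-fold lower. POSTN, periostin, a matricellular protein of connective tissue, had -4.98, -4.42, -4.92 and -4.07. Its mean was -4.60 ± 0.43, and arrays 1 and 3 were again the lower ones.

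MGP, matrix Gla protein, which holds back calcification, had a mean log2 ratio of -3.18 ± 0.33 (SD, n = 4). LUM, lumican, a small proteoglycan that binds collagen fibrils, had a similar mean of -3.18 and a narrower SD of 0.08. Its values of -3.23, -3.06, -3.24 and -3.18 on arrays 1 to 4 spanned less than those of nearly all gene probes, of which 2.8% had a smaller SD. EGFL7, a protein best known from endothelial cells, stood at -2.83 ± 0.17 and FBLN5, fibulin 5, which takes part in elastic fiber assembly, at -1.99 ± 0.12. VCAN, versican, a large chondroitin sulfate proteoglycan, was less even. Its log2 ratios were -2.48, -1.71, -2.84 and -1.52, with a mean of -2.13 ± 0.63.

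THBS1, thrombospondin 1, was measured by its 2 probes. The probe of U76994, whose sequence is given above, had log2 ratios of -1.71, -1.35, -1.42 and -1.496 on arrays 1 to 4, and that of BX934533 had -1.36, -1.03, -1.31 and -1.12. The means of -1.49 ± 0.16 and -1.21 ± 0.15 lay on the same side of the threshold. Both accessions had been selected by the study on these arrays, so nothing is read from that.

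Wnt ligands and modulators were lower in 5 of 5 cases, beside 6.06% of all gene probes and 44.5% of the pathway list entries. The median of their mean log2 ratios was -3.77. DKK3, a dickkopf family glycoprotein, had -5.58, -5.70, -5.28 and -5.16 on arrays 1 to 4, a mean of -5.43 ± 0.25 (SD, n = 4) or 43.1-fold lower. FRZB, a secreted decoy that binds Wnt proteins through a frizzled-like domain, had -4.20, -3.88, -4.52 and -3.94, with a mean of -4.14 ± 0.29. FRZB lay on the same side as the 2 ligands that follow. WNT5A, a ligand known for signaling without beta-catenin, had -4.15, -3.45, -3.76 and -3.74, a mean of -3.77 ± 0.29 or 13.7-fold lower. WNT9A, a ligand known from joint formation, changed less, with -1.42, -1.01, -1.62 and -0.94 and a mean of -1.25 ± 0.33. Arrays 2 and 4 lay nearest to 0. WISP1, a CCN family protein first described as a Wnt target, had a mean of -3.41 ± 0.21. Its place in this group is a choice made for this report.

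Receptors for these ligands could be followed in part. Of 78 receptors and co-receptors listed for the secreted ligands, 10 could be reached by a symbol, of which 5 were lower, 2 were higher and 3 did not pass. With the arrays centered as above, 8 were lower, 1 was higher and 1 did not pass. The frizzled receptors FZD4, FZD1 and FZD7, to which Wnt proteins bind, had mean log2 ratios of -2.49 ± 0.06, -1.69 ± 0.20 and -1.57 ± 0.11 (SD, n = 4). RAMP1, a partner of receptors for adrenomedullin-related peptides, stood at -2.30 ± 0.21 and TGFBR1, the type I receptor for TGF-beta, at -1.10 ± 0.14. Whether RAMP1 serves adrenomedullin itself in these cells was not tested. ITGA4, the alpha 4 integrin subunit, was higher at 2.33 ± 0.73, and NRP2, neuropilin 2, a co-receptor of class 3 semaphorins, was called higher at 1.18 ± 0.23 as deposited but not at its centered mean of 0.97. ROR1, a Wnt receptor, at -0.88 ± 0.73, ITGB1, the beta 1 integrin subunit, at -0.85 ± 0.26 and ENG, endoglin, at -0.80 ± 0.17 did not pass as deposited and are named after their values were seen. Their centered means of -1.09, -1.06 and -1.01 were called lower. These 10 were named from the same pathway list, so all had been selected by the study on the same arrays. Of its entries with 1 probe each, 44.5% were lower and 44.7% higher as deposited, and 54.6% and 39.6% when centered. Over all gene probes 6.06% were lower and 6.12% higher as deposited. Nothing is read from the receptor counts. The published ratio of ROR1 differs from the mean given here. So do those of other genes in this report, CST3, ZP2, SFRP1 and MAP2 among them. The centered means of CST3, ZP2, SFRP1 and MAP2 were -1.27, 1.1967, -1.29 and -2.03. These lay nearer to the published ratios than the means as deposited, and so did the centered mean of ROR1. LUM went the other way, with a centered mean of -3.39 further from its published ratio than its mean as deposited. Why the published ratios differ was not tested.

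Among ligands of the TGF-beta and BMP pathways and the BMP modulator, 3 of 5 were lower, 1 was higher and 1 did not pass. BMPER, which binds BMP proteins outside the cell, had log2 ratios of -4.97, -4.45, -5.38 and -4.37 on arrays 1 to 4, a mean of -4.79 ± 0.47 (SD, n = 4) or 27.7-fold lower. TGFB2, transforming growth factor beta 2, had -2.60, -2.45, -2.55 and -2.86, with a mean of -2.62 ± 0.17. The BMP ligands themselves lay close to the 2-fold threshold. BMP4 had -1.36, -0.83, -0.47 and -1.42, and its mean of -1.02 ± 0.45 passed, but it moved to -0.91 without array 1 and to -0.89 without array 4. BMP2 had -1.25, -0.50, -1.35 and -0.61, and its mean of -0.93 ± 0.43 did not pass, while it was called at -1.07 without array 2 and at -1.04 without array 4. INHBA, the beta A subunit of activins, was higher on every array, with 1.34, 1.53, 1.28 and 1.34 and a mean of 1.37 ± 0.11.

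Of the other growth factors, 3 of 6 were lower, 2 were higher and 1 did not pass. MDK, midkine, a heparin-binding growth factor of embryonic tissue, had log2 ratios of -3.43, -3.13, -3.09 and -3.54 on arrays 1 to 4, with a mean of -3.30 ± 0.22 (SD, n = 4) or 9.83-fold lower. A second probe for MDK, of accession BU359918, which was not in the pathway list under the rule used here, had -3.13, -3.07, -2.86 and -2.73. Its mean was -2.95 ± 0.19. Second probes were sought only among those that the study had called on these arrays, so nothing is read from the likeness. PDGFC, a ligand of the PDGF receptors, stood at -2.88 ± 0.18 and ANGPT1, angiopoietin 1, a ligand of the endothelial receptor TEK, at -2.73 ± 0.27. HBEGF, a ligand of the EGF receptor that is cut from a membrane precursor, had a mean of -0.90 ± 0.31 and did not pass.

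The growth factors on the higher side were BDNF and NRG4. BDNF, brain-derived neurotrophic factor, had log2 ratios of 2.19, 2.84, 2.13 and 3.18 on arrays 1 to 4. Its mean of 2.59 ± 0.51 (SD, n = 4), or 6.005-fold higher, was the highest among the secreted genes, and arrays 2 and 4 were above arrays 1 and 3. NRG4, neuregulin 4, a ligand of ERBB4, had 1.27, 1.75, 1.46 and 1.91, with a mean of 1.60 ± 0.29.

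Inflammatory cytokines and induced proteins were lower in 4 of 4 cases, with a median of the mean log2 ratios of -2.43. TNFSF15, a TNF family cytokine, had -4.27, -3.17, -3.73 and -3.04 on arrays 1 to 4, a mean of -3.55 ± 0.56 (SD, n = 4). TNFAIP6, a hyaluronan-binding protein induced by TNF, had -2.36, -2.57, -2.25 and -2.65, with a mean of -2.46 ± 0.18. The arrays of TNFAIP6 lay nearer to each other than those of TNFSF15. C1QTNF3, a member of the C1q and TNF related family, stood at -2.40 ± 0.12. The pathway list does not type C1QTNF3 as a cytokine, and its place in this group is a choice made for this report. IL8, a chemokine that attracts neutrophils, had -3.04, -1.76, -3.01 and -1.70, so arrays 1 and 3 were alike and arrays 2 and 4 were alike, around a mean of -2.38 ± 0.75. Chicken has more than 1 gene carrying IL8 as an older name, and which of them the probe measured is not known from the files.

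Peptide hormone precursors were 3 lower and 1 higher of 4, and their median SD over arrays, 1.02, was the widest of the role groups. PENK, proenkephalin, the precursor of the enkephalin opioids, was even, with log2 ratios of -4.42, -4.51, -4.21 and -4.43 on arrays 1 to 4 and a mean of -4.39 ± 0.13 (SD, n = 4) or 21.0-fold lower. GCG, the proglucagon gene, had -2.36, -0.42, -2.58 and -0.59. Arrays 1 and 3 were past the 2-fold threshold and arrays 2 and 4 were not, around a mean of -1.49 ± 1.14. NTS, neurotensin, had -2.11, -0.43, -1.81 and 0.13, so array 4 was on the other side of 0. Its mean of -1.06 ± 1.08 passed, but it moved to -0.71 without array 1 and to -0.80 without array 3. ADM, adrenomedullin, a vasodilator peptide known to be induced by low oxygen, was higher on every array with 1.67, 3.05, 1.43 and 3.35, a mean of 2.38 ± 0.97 or 5.19-fold higher.

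**Figure D2:**
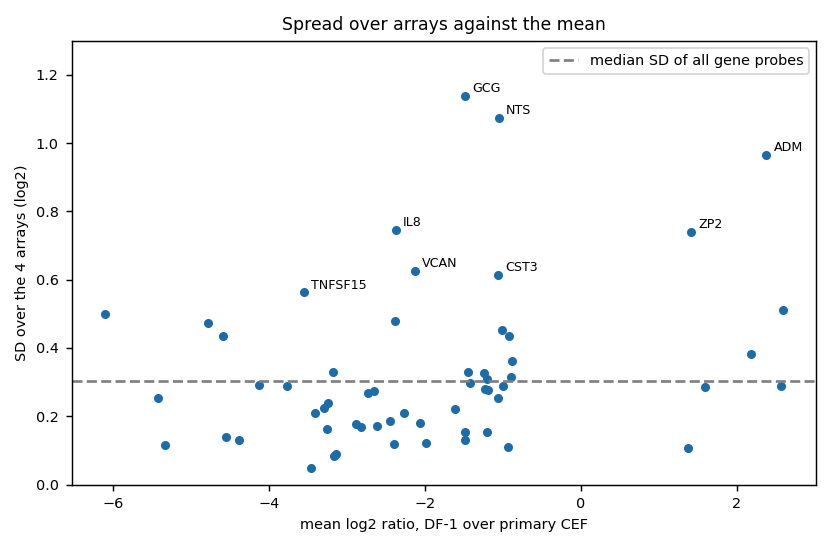
SD of the log2 ratio over the 4 arrays (y axis) against its mean (x axis) for 58 of the 59 accessions, 1 point each, with the median SD of all gene probes as a dashed line at 0.30. The 8 widest are named, and GCG, NTS and ADM stand highest.

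The spread of most secreted genes was ordinary, with a median SD over arrays of 0.28 beside 0.30 for all gene probes, but a few were among the widest on the arrays. The SD of GCG was larger than that of 99.5% of gene probes, that of NTS than 99.3%, that of ADM than 98.8%, that of IL8 than 96.9% and that of ZP2 than 96.8%. All 5 had higher ratios on arrays 2 and 4 than on arrays 1 and 3. In the centered values, the deviations of the 59 accessions from their own means correlated between arrays 1 and 3 at r = 0.556 and between arrays 2 and 4 at r = 0.575. Over all 42034 gene probes the same correlations were 0.273 and 0.075. The remaining pairs of arrays lay between -0.823 and -0.717 for the 59 accessions and between -0.659 and -0.461 for all gene probes. The points share the arrays, and deviations that sum to 0 over arrays pull such correlations below 0. Genes with a wide SD weigh most in them, and they were not computed for the rest of the pathway list. The labels name nothing that sets arrays 1 and 3 apart from arrays 2 and 4, and the arrays were not grouped by it.

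**Figure D3:**
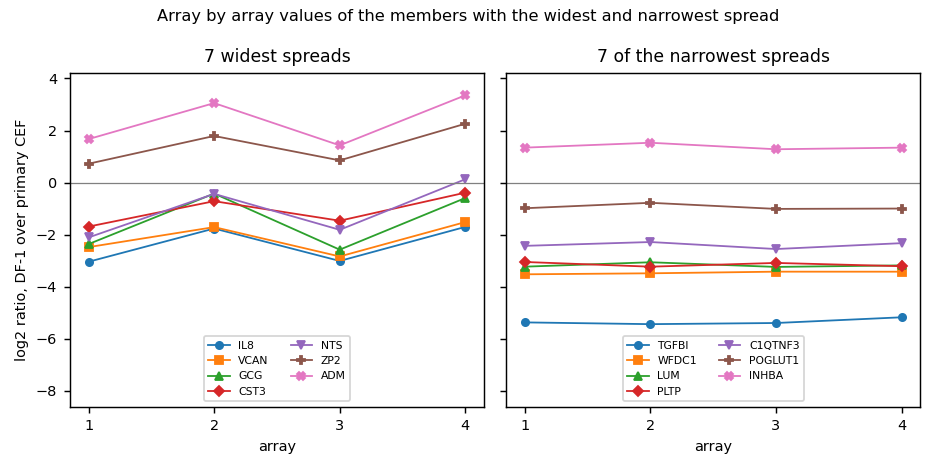
Log2 ratio of DF-1 over primary CEF (y axis) on arrays 1 to 4 (x axis) for the 7 secreted genes with the widest SD (left) and 7 of the narrowest (right), lines joining the values of a gene. The genes on the left lie higher on arrays 2 and 4, and those on the right are nearly level.

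Peptidases included 4 lower, 1 higher and 1 that did not pass of 6. PCSK6, a proprotein convertase that cuts TGF-beta family precursors, had log2 ratios of -2.61, -2.53, -3.05 and -2.44 on arrays 1 to 4, with a mean of -2.66 ± 0.27 (SD, n = 4). MMP23B, a matrix metalloproteinase, stood at -2.39 ± 0.48 and ADAMTS17, a metalloproteinase with thrombospondin motifs, at -1.49 ± 0.13. PLAU, urokinase, which activates plasminogen, had -1.30, -1.52, -1.10 and -1.87, with a mean of -1.45 ± 0.33. Array 4 was the lowest for PLAU, unlike in most of the uneven genes. MMP16, a metalloproteinase anchored in the membrane, had -0.95, -1.09, -1.32 and -0.63, and its mean of -0.996 ± 0.29 fell just short of the threshold. MASP1, a peptidase of the lectin pathway of complement, was higher with 2.28, 2.55, 2.45 and 2.96, a mean of 2.56 ± 0.29 or 5.90-fold higher.

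Peptidase inhibitors were lower in 4 of 5 cases. WFDC1, a whey acidic protein domain inhibitor, had log2 ratios of -3.52, -3.48, -3.42 and -3.42 on arrays 1 to 4, and its SD of 0.05 around a mean of -3.46 was the narrowest of the secreted genes. The probe listed as SERPINF2, an inhibitor of plasmin, stood at -3.25 ± 0.16 (SD, n = 4), but the study's probe annotation names the same probe SERPINF1, so which of these genes was measured is not known. CST3, cystatin C, an inhibitor of cysteine peptidases, had -1.69, -0.71, -1.46 and -0.39. Its mean of -1.06 ± 0.61 passed and moved to -0.85 without array 1 and to -0.93 without array 3. SERPINI1, neuroserpin, had -1.21, -0.70, -1.27 and -1.06, and its mean of -1.06 ± 0.25 moved to -0.99 without array 3. TFPI, tissue factor pathway inhibitor, which holds back the start of coagulation, was higher with 1.92, 2.47, 1.80 and 2.56, a mean of 2.19 ± 0.38 or 4.55-fold higher.

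Binding and carrier proteins were lower in 4 of 4 cases. PLTP, phospholipid transfer protein, had log2 ratios of -3.05, -3.23, -3.09 and -3.21 on arrays 1 to 4, with a mean of -3.14 ± 0.09 (SD, n = 4). IGFBP2, which binds insulin-like growth factors, stood at -2.27 ± 0.21, GLIPR1, a CAP family protein, at -2.06 ± 0.18 and LGALS3, galectin 3, a lectin for galactosides, at -1.24 ± 0.28. All 4 of these genes kept 1 sign on every array.

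Guidance and neural proteins were 3 lower and 1 not passing of 4. SEMA3D and SEMA3F, secreted class 3 semaphorins that guide axons and migrating cells, had mean log2 ratios of -3.25 ± 0.24 and -1.42 ± 0.30 (SD, n = 4). NEGR1, a neuronal adhesion protein held at the surface by a lipid anchor, stood at -1.19 ± 0.28. C4orf31 had -1.28, -0.66, -1.08 and -0.50 on arrays 1 to 4, and its mean of -0.88 ± 0.36 did not pass.

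The remaining genes included some for which a location outside the cell is not their usual description. FAM20A, a pseudokinase that aids the secretory pathway kinase FAM20C, had log2 ratios of -4.37, -4.55, -4.58 and -4.71 on arrays 1 to 4, a mean of -4.55 ± 0.14 (SD, n = 4) or 23.5-fold lower. ZP2, a glycoprotein of the egg coat, was higher with 0.72, 1.79, 0.85 and 2.26, and its mean of 1.41 ± 0.74 rested on arrays 2 and 4 more than on arrays 1 and 3. TPRN, known as a protein of hair cell stereocilia, stood at -1.62 ± 0.22 and OSCP1 at -1.21 ± 0.31. POGLUT1, an enzyme that works inside the endoplasmic reticulum, had a mean of -0.94 ± 0.11 and did not pass. As examples, MMP16 and NEGR1 stay at the membrane, and TNFSF15 and HBEGF are made as membrane precursors. The location label of the list was thus not met in full.

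The values nearest to the thresholds were as follows. As deposited, MMP16 at -0.996, POGLUT1 at -0.94, BMP2 at -0.93, HBEGF at -0.90 and C4orf31 at -0.88 fell short of the 2-fold threshold, and BMP4 at -1.02 and NTS, SERPINI1 and CST3 at -1.06 lay just past it. In the centered values, the accession nearest to the threshold on the lower side was C4orf31 at -1.09, and on the higher side INHBA at 1.16. The pathway list gives no location for genes that it left out, so no excluded neighbor can be named from it.

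Other secreted genes were followed where they could be named. Of 256 further secreted genes of the same families, 6 could be reached, of which 4 were lower, 0 were higher and 2 did not pass. IGFBP7, which binds insulin-like growth factors, had log2 ratios of -5.43, -5.74, -5.74 and -5.60 on arrays 1 to 4, a mean of -5.63 ± 0.15 (SD, n = 4) or 49.4-fold lower. SOD3, extracellular superoxide dismutase, stood at -3.96 ± 0.14, LAMB2, the laminin beta 2 chain, at -1.89 ± 0.27 and SFRP1, a secreted Wnt antagonist, at -1.08 ± 0.36. These 4 were again in the study's list, so nothing is read from their count. INHA, the alpha subunit of inhibin, and FGF4, a fibroblast growth factor, were named by RefSeq accessions alone, outside that list, and had means of 0.08 ± 0.23 and 0.34 ± 0.18, neither past the threshold. Centered, their means were -0.13 and 0.13, so the sign of INHA turned. Among extracellular entries typed as enzymes or transporter, 6 of 7 were lower, which beside IGFBP7, SOD3 and LAMB2 included GLT1D1 at -2.47 ± 0.09, PDZRN3 at -1.88 ± 0.06 and PXDN, peroxidasin, at -1.30 ± 0.33. BTD, biotinidase, which frees biotin, was called higher at 1.21 ± 0.11 as deposited but not at its centered mean of 0.9998, so that 0 of the 7 were then higher.

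Compared with entries of the same pathway list at other locations, the secreted genes had more members on the lower side. Lower calls made up 78.0% of the 59 secreted accessions, and 32 of the 37 extracellular entries left out of this group were lower too, or 86.5%. At the plasma membrane 48.9% of 133 entries were lower, in the cytoplasm 43.4% of 309 and in the nucleus 32.7% of 217. Higher calls ran the other way, from 13.6% of the secreted accessions through 33.8% at the plasma membrane and 46.0% in the cytoplasm to 128 of the 217 entries in the nucleus. In the centered values lower calls made up 86.4% of the secreted accessions, 66.2% at the plasma membrane, 52.8% in the cytoplasm and 40.6% in the nucleus. The higher shares were then 13.6%, 30.8%, 39.2% and 51.2% in the same order. These shares describe a list selected on these arrays, and the difference between locations was not tested. Within the secreted genes, the entries typed as cytokines were lower in 5 of 5 cases, those typed other in 33 of 39, peptidases in 3 of 5 and growth factors in 5 of 10.

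**Figure D4:**
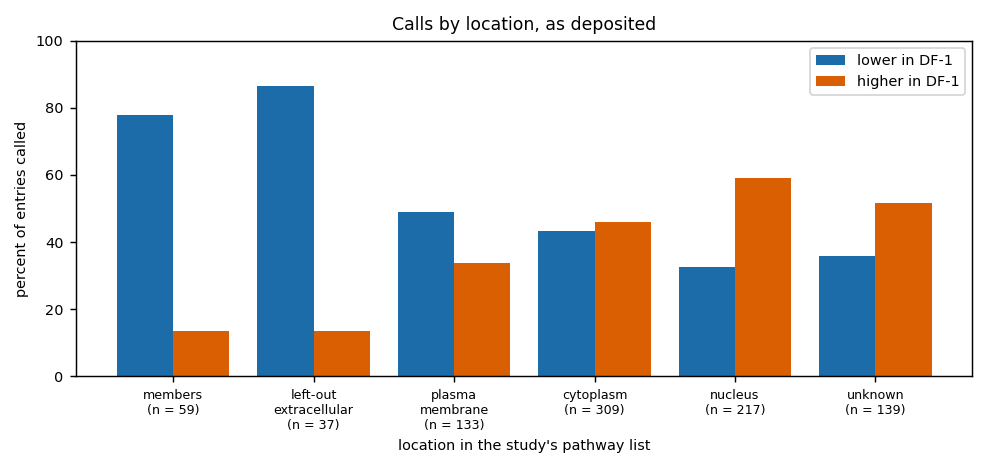
Percent of entries of the study's pathway list called lower (blue) or higher (orange) in DF-1 cells, on the y axis, by the location that the list gives, on the x axis, from the values as deposited, with the number of entries below each pair of bars. The 59 secreted accessions (members) have 78.0% lower and 13.6% higher, and the nucleus has 32.7% lower and 128 of 217 higher.

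What the probes share was described for the 47 accessions whose probe sequence could be read, beside 1773 probes of the study's lower genes. The sequence AATAAA, the usual signal for cleavage and polyadenylation, lay on the sense strand of 10.6% of the secreted probes and 7.7% of all 1773, and on the opposite strand of 2.1% and 4.1%. No open reading frame crossed the probe in 19.1% of the secreted probes and 18.7% of all. A cysteine codon in an open frame was present in 59.6% and 57.9%, and the median GC content was 41.7% and 43.3%. These shares describe the stretch that the array measures and not the whole transcript.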

How the data were processed

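For every spot and array, the deposited values were a linear ratio, DF-1 over CEF, and in another table its log2. The authors used Cy3 for CEF and Cy5 for DF-1 throughout on 4 Agilent chicken arrays, with spike-in RNA added to adjust for dye effects. The dyes were never swapped between the cell types, so effects of the dye left on single probes cannot be told apart from differences between the cells. They scanned with a GenePix scanner, corrected for background by a method not given in the sources used here, and normalized by loess. The log2 of the ratio equaled the log2 table to within 5.0e-05. The columns of mean and SD that the authors deposited hold linear ratios and were not used.

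Log2 ratios were used as deposited. Of 45220 spots, 42034 were gene probes. With limma 3.58.1 in R 4.3.3, the mean over 4 arrays was tested against 0, 2-sided, on all gene probes, with calls made at a mean past 1 or -1 and p under 0.05 before adjustment. The fit was tested on simulated data. Tables and figures used Python 3.11.15, numpy 2.4.6, pandas 2.3.3 and matplotlib 3.10.9. Depth has no counterpart on these arrays, and their number limits the precision.

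Symbols, types and locations came from the study's pathway list by accession, and further names from RefSeq accessions (GRCg7b). Probe sequences came from a table of the study that was read in part. Every gene that met the rule was named, except 1 that is counted but not reported here. Of the lists of receptors and other secreted genes, each called gene with a symbol and each named by RefSeq alone was named, as were extracellular entries typed enzyme or transporter. The genes and lists were chosen with earlier results of these data known. Alternatives were shifting or scaling each array, adjusted p, other fold thresholds, limma treat, robust variances, the log2 table, medians over arrays and leaving out each array.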

Additional observations from a re-analysis of the deposited data

Results flagged for a closer look

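Of the 59 accessions, 1 had an array that stood apart by Dixon's ratio: POGLUT1, with log2 ratios of -0.98, -0.78, -1.01 and -0.997 on arrays 1 to 4. The gap of array 2 to its neighbor was 0.891 of the whole range, above Dixon's critical value for 4 samples. Chance flags about 1 in 20 groups. The SD of POGLUT1 was 0.11, among the narrowest of the secreted genes.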

How the results depend on the processing

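No secreted gene changed direction in any of 13 settings, and 38 of 59 accessions kept their call in all of them. Settings that change only the threshold or the test keep the mean, and the log2 table holds the same values. No direction could change in those. Shifting could not turn a sign either, as no array median exceeded 0.47 and no mean lay nearer to 0 than -0.88. The 8 higher calls became 6 with a 3-fold threshold and 7 with limma treat, and stayed 8 elsewhere. The 46 lower calls became 32 with a 3-fold threshold, 36 with limma treat, 47 with medians over arrays, and 51 after shifting, shifting and scaling, or with no fold threshold. Leaving out 1 array gave 43 to 49 lower calls, 8 to 8 higher calls and a median log2 ratio from -2.15 to -1.97. Over all gene probes, 5119 calls became 18052 with no fold threshold, 2348 with a 3-fold threshold and 3311 with limma treat, as fewer or more probes pass such thresholds by construction, and 5122 to 5339 without 1 array. Calls near the threshold turned on single arrays: MMP16 was called without array 1 or array 4, and C4orf31 and HBEGF without array 4, at -1.01, -1.12, -1.01 and -1.03. The signal over background is unknown. No paired analysis was possible because there is 1 group of arrays and each ratio already pairs the cell types. Other windows on the N-terminal stretch of the proteins were not run, since no protein sequences were used here.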
